A study of Mus musculus with 6 samples.

Results

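The genes described here are the cyclins, the cyclin-dependent kinases, their inhibitors and the E2F transcription factors. They are compared between mouse mammary tumors and the luminal cells that the labels name as the origin of the tumors. They were chosen by symbol alone: a cyclin or cyclin-dependent kinase symbol ending in a number, an inhibitor of the Cdkn1 or Cdkn2 family other than Cdkn1a, or an E2f symbol, on a probe set that names 1 gene. The rule gave 47 of 22180 genes: 14 cyclins, 19 kinases, 6 inhibitors and 8 E2F factors. Each gene was represented by its brightest probe set, averaged over the 6 arrays, and only Ccnl2 had more than 1 to choose from. Cyclin B1 had no probe set of its own in the table used and was not analysed here.

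Total RNA was profiled on 6 arrays. The tumor group held 3 mammary tumors (23, 24 and 25) that arose several months after Ad-K8-Cre had been given into the milk ducts of Trp53L/L;Brca1L/L females. This adenovirus expresses Cre recombinase from a keratin 8 promoter, and the labels call the tumors null for both genes. The wild-type group held luminal cells of 3 Rosa26-Stop-YFP females (replicates 1, 2 and 4), which received the same virus and were sorted for yellow fluorescent protein 10 to 14 days later. Both groups thus had the virus and Cre, but the labels mention a sort for wild-type cells only and do not give the number of tumor-bearing mice. Ages are not given, and the labels do not say how far the virus was confined to keratin 8 cells. The comparison asks how tumors differ from the cells the labels name as their origin. If tumors shared a mouse, the p-values measure a spread that is partly within 1 animal.

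Cyclins are regulatory subunits that switch on cyclin-dependent kinases. D cyclins with Cdk4 and Cdk6 start the phosphorylation of the retinoblastoma protein, which releases E2F factors. E cyclins and A cyclins with Cdk2 carry cells into and through DNA replication, and A and B cyclins with Cdk1 drive mitosis. The Cdkn2 inhibitors bind Cdk4 and Cdk6, and the Cdkn1 inhibitors act on a wider set of cyclin and kinase complexes. In the mammary gland, cyclin D1 is needed for the growth of milk-producing alveoli.

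All values are log2 expression values as deposited, after RMA, and a difference is the tumor mean minus the wild-type mean in log2 units with its moderated standard error. A probe set's value was never set against that of another probe set, because probes differ in brightness. An adjusted p is from limma with Benjamini-Hochberg adjustment over all 22180 genes, with 0.05 as the threshold. As a mark for background, each array's 95th percentile over 1105 olfactory receptor genes was used, which lay at 3.24 to 3.45 on the tumor arrays and at 3.70 to 3.86 on the wild-type arrays. Of the 47 genes, 2 (Ccnb3 and Cdk15) lay under this mark on all 6 arrays and 13 lay under it on at least 1.

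The luminal markers averaged lower in tumors. The mean of 7 luminal markers, keratins and claudins among them, was 6.68 to 8.21 on tumor arrays and 8.70 to 9.39 on wild-type arrays, and none of the 7 passed the test. Krt19, a keratin of luminal cells, measured 5.91, 4.83 and 2.05 in tumors, under the background mark in tumor 25, against 8.0, 9.08 and 8.78 in wild-type cells (-4.36 ± 0.94, SE, limma adjusted p of 0.059). Of 7 macrophage markers 6 rose, with list means of 6.31 to 6.84 in tumors and 3.83 to 4.33 in wild-type cells. The mean of 7 skeletal muscle markers reached 9.54 in tumor 23 and 6.53 in tumor 25. Tumor 24, with 3.76, lay near the wild-type arrays, which ranged from 3.42 to 3.59, and none of the 7 passed. The part of these cells in the results on the cell cycle genes was not tested. In such bulk samples fewer cells of a type and less RNA per cell cannot be told apart.

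In the tumors, 2 of the 47 genes rose, the kinases Cdk4 and Cdk10, and none fell, while 45 did not pass. These 2 are 4.26% of the 47, where 3.91% of all genes passed in either direction, 2.52% passed upward and 1.39% downward, so the count lies near the background. At an unadjusted limma p under 0.05, 15 of the 47 genes were higher and 1 was lower. Of all 22180 genes 2971 were higher and 2879 lower, or 26.4% in either direction. Among genes averaging at least 5 over the arrays, 11 of 34 from the list and 1918 of all 7726 were higher. The tumor mean was higher for 36 of the 47 genes, or 76.6%, where it was higher for 41.7% of all genes and for 65.1% of genes averaging at least 5 over the arrays. Over the 47 the median difference was 0.56, against -0.12 over all genes and 0.32 over those averaging at least 5. The count of higher means depended on scaling: it was 31 with a second quantile normalization, 31 with cyclic loess and 21 with housekeeping centring, where the median of all genes was -0.72. Measured against the median of all genes, the median of the 47 lay 0.68 higher as deposited, 0.42 with a second quantile normalization, 0.36 with cyclic loess and 0.68 with housekeeping centring.

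All 3 tumor values lay above all 3 wild-type values for 17 of the 47 genes (36.2%), where this held for 14.0% of all genes and 24.5% of genes with a mean of at least 5. Of the 34 cell cycle genes with such a mean, it held for 13. Such a mean takes in the tumor arrays, and among the 13 Ccnd2, Cdk1 and Cdk6 reached it only through their tumor values. All 3 tumor values lay below the wild-type values for 1 gene, Ccna1, where this held for 22.4% of all genes. Among genes with a mean of at least 5, it held for 0 of the 34 from the list and for 745 of all 7726. Tumor 25 had the highest value of the 6 arrays for 20 of the 47 genes (42.6%), against 19.0% of all genes and 32.6% of those with a mean of at least 5. Wild-type replicate 2 had the lowest value for 19 of the 47 (40.4%), against 18.2% of all genes and 30.0% of those with a mean of at least 5. Between arrays of a group the 47 genes had a median SD of 0.44 in tumors and 0.42 in wild-type cells. Over all genes tumors had 0.28 and wild-type cells 0.27. However, 7446 of the 22180 genes lay under the background mark on all 6 arrays, against 2 of the 47. Spread was not compared with that of genes of like brightness.

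**Figure D1:**
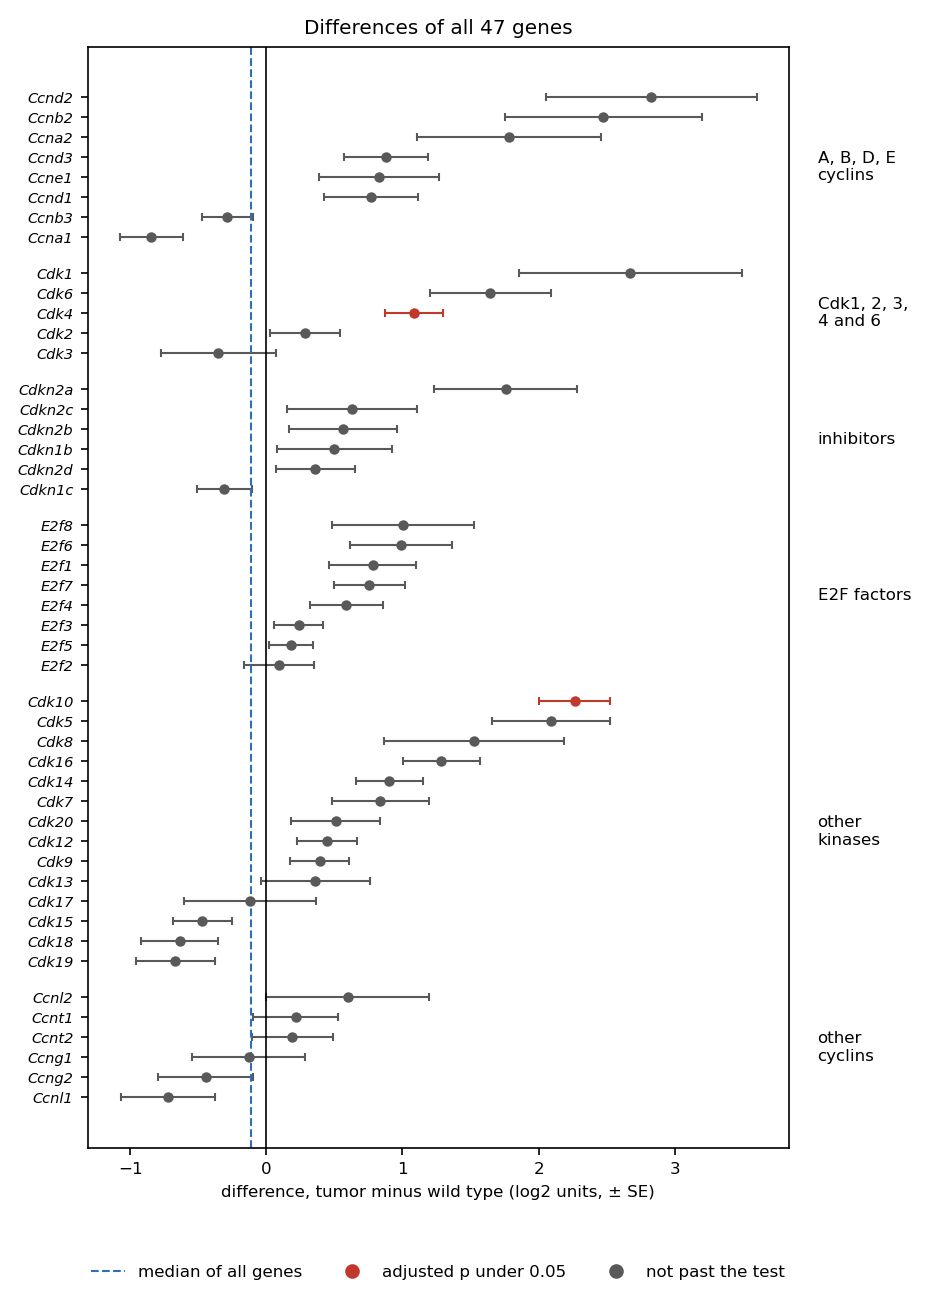
Difference of each of the 47 genes, tumor minus wild type, in log2 units on the horizontal axis, with the moderated standard error as bars, grouped by role. Red points passed limma's test and the dashed line is the median of all genes (-0.12). Only Cdk4 and Cdk10 are red, and 36 of the 47 points lie to the right of 0, a number that was 31 with a second quantile normalization or cyclic loess and 21 with housekeeping centring.

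The mitotic cyclins and their kinase were higher in tumors on average but did not pass the test over all genes. Ccnb2, a B cyclin that binds Cdk1, measured 7.93, 6.09 and 8.65 in tumors 23, 24 and 25, against 5.90, 4.22 and 5.11 in wild-type replicates 1, 2 and 4. The groups did not overlap, although tumor 24 lay close to wild-type replicate 1. The difference was 2.48 ± 0.72 (SE, n = 3 in each group, limma adjusted p of 0.10). Cdk1, the kinase that starts mitosis, measured 7.53, 5.93 and 8.17 in tumors and 5.88, 3.14 and 4.58 in wild-type cells. Tumor 24 and wild-type replicate 1 nearly met, and replicate 2 lay under the background mark. The difference of Cdk1 was 2.67 ± 0.82 (SE, limma adjusted p of 0.11), and it was 1.98 without wild-type replicate 2 and 3.31 without tumor 24. Fitted on the 7726 genes with a mean of at least 5 alone, where 8.40% of genes rose, Ccnb2 (0.033) and Cdk1 (0.036) passed. Cdk1 averaged 4.53 in wild-type cells and reached that mean through its tumor values. Under the filter at the median over genes Ccnb2 passed (0.048) and Cdk1 did not (0.053). With housekeeping centring, which called 4975 of all genes, both passed (0.039 and 0.043).

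Ccna2, the A cyclin of dividing somatic cells, measured 7.34, 6.19 and 7.84 in tumors, against 6.45, 4.08 and 5.49 in wild-type cells. Here the groups overlapped, since tumor 24 lay below wild-type replicate 1. The difference was 1.78 ± 0.68 (SE, limma adjusted p of 0.16), and it was 1.15 without wild-type replicate 2. For Ccna2, Ccnb2 and Cdk1 the order of the arrays was the same within each group: tumor 25 was highest and tumor 24 lowest, and wild-type replicate 1 was highest and replicate 2 lowest. Leaving out tumor 24 brought Ccnb2 past the test, at a difference of 3.21 and a limma adjusted p of 0.033, but not Ccna2 (0.11) or Cdk1 (0.066).

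Ccna1, an A cyclin known from the male germ line, was low in both groups. It measured 3.19, 3.06 and 3.19 in tumors, under the background mark on all 3 arrays, and 3.56, 4.33 and 4.08 in wild-type cells, where replicate 1 lay under it too. The difference was -0.84 ± 0.23 (SE, limma adjusted p of 0.094), and it passed, downward, with housekeeping centring (0.019). Ccnb3, a cyclin of germ cells, measured 1.85, 1.51 and 1.84 in tumors and 1.84, 2.05 and 2.16 in wild-type cells, all under the mark. With levels at background no difference of Ccnb3 could be read (-0.29 ± 0.19, SE, limma adjusted p of 0.34).

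The D cyclins, which link growth signals to the cell cycle, had unequal differences. Ccnd2 had the largest difference of the 47 genes with all 6 arrays: it measured 6.70, 8.98 and 6.86 in tumors, against 5.55, 3.43 and 5.08 in wild-type cells. The groups did not overlap, tumor 24 stood highest and wild-type replicate 2 lay under the background mark. The difference of 2.83 ± 0.78 (SE), a ratio of 7.10, had a limma adjusted p of 0.094. It passed with the dim genes left out (0.025 under the filter at 5, 0.039 under that at the median) and with housekeeping centring (0.048). The filter at 5 takes the mean over all 6 arrays, and Ccnd2, at 4.69 in wild-type cells, reached 5 through its tumor values. The difference was 2.09 without tumor 24, where Cdk1, Ccnb2 and Ccna2 exceeded it, and 2.20 without wild-type replicate 2, where Cdk10 did (2.27). Without wild-type replicate 1 it was 3.26, below Cdk1 with 3.35. Ccnd3 measured 6.23, 5.35 and 6.48 in tumors, against 5.19, 5.17 and 5.06 in wild-type cells. Its groups did not overlap and the wild-type arrays lay close together, with a difference of 0.88 ± 0.31 (SE) and a limma adjusted p of 0.14. Without tumor 24 it was 1.21 and passed, at a limma adjusted p of 0.033.

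Ccnd1 measured 7.63, 7.40 and 8.56 in tumors and 6.95, 7.46 and 6.86 in wild-type cells. Tumor 24 lay just below wild-type replicate 2, so the groups overlapped, and the difference was 0.77 ± 0.35 (SE, limma adjusted p of 0.21). Ccne1, an E cyclin of the step into DNA replication, measured 4.02, 4.48 and 5.62 in tumors, against 4.17, 3.39 and 4.07 in wild-type cells. Tumors 24 and 25 lay above every wild-type array and tumor 23 did not, and wild-type replicate 2 lay under the background mark. The difference was 0.83 ± 0.44 (SE, limma adjusted p of 0.27). Of the 8 A, B, D and E cyclins, 6 had higher and 2 lower means in tumors, also under all 3 other scalings. None passed as deposited, with a second quantile normalization or with cyclic loess, while Ccna1, Ccnb2 and Ccnd2 did with housekeeping centring.

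**Figure D2:**
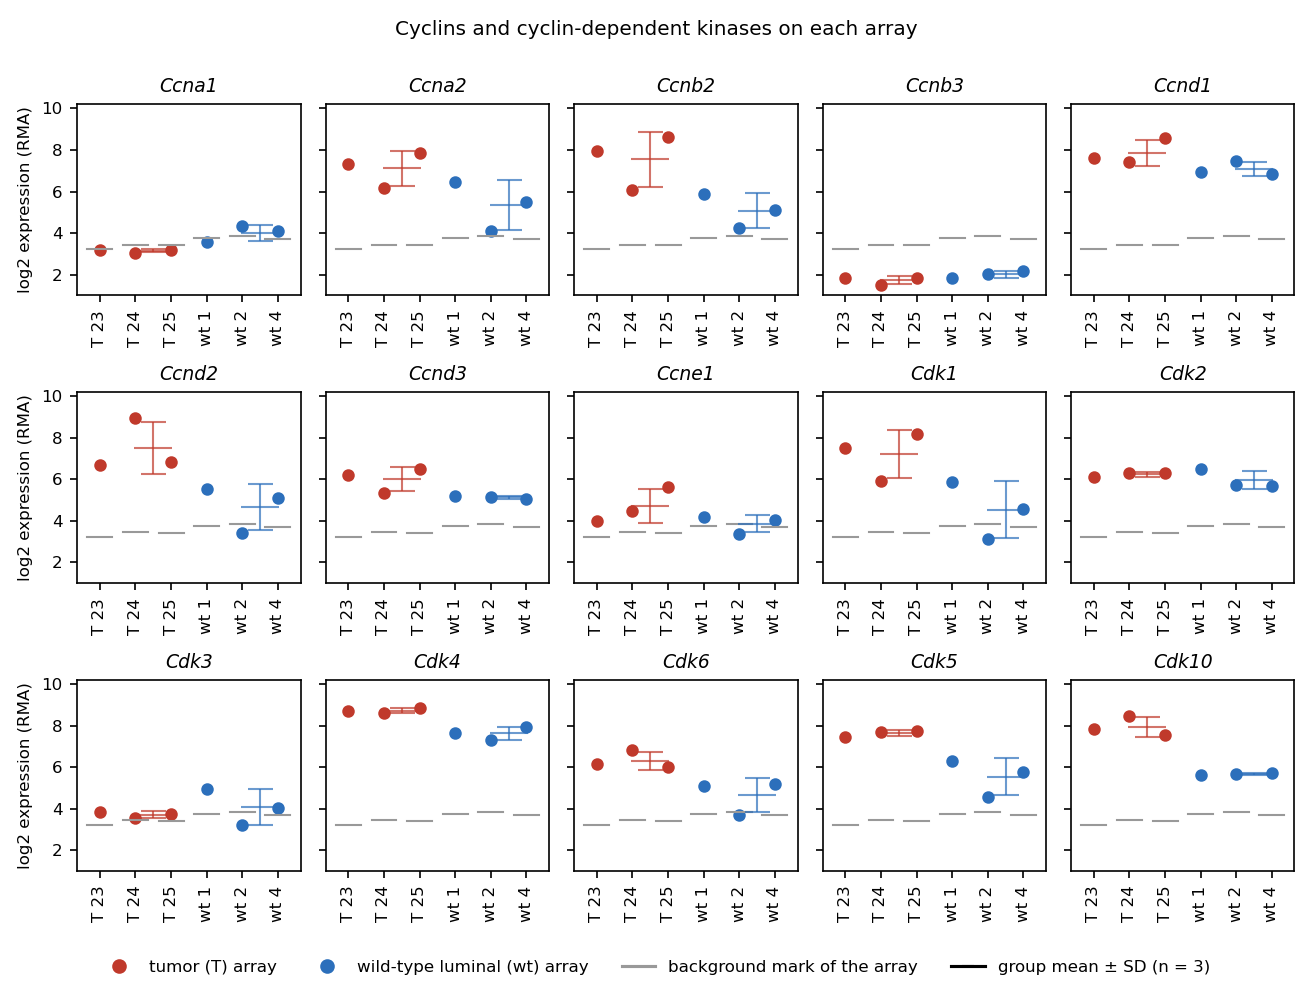
Log2 expression (vertical axis) of the 8 A, B, D and E cyclins, the kinases Cdk1, Cdk2, Cdk3, Cdk4 and Cdk6, and Cdk5 and Cdk10, on each array: tumors 23, 24 and 25 in red, then wild-type replicates 1, 2 and 4 in blue. Horizontal lines with bars are group means ± SD (n = 3) and grey ticks the background mark of each array. The groups of Cdk4 and of Cdk10 lie apart, while Ccnb2 and Cdk1 are spread widely in both groups.

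Cdk4, the partner of D cyclins, rose in the tumors. It measured 8.70, 8.62 and 8.85 in tumors, against 7.65, 7.32 and 7.94 in wild-type cells. The tumors lay within a narrow band above every wild-type array, at 8.72 ± 0.12 in tumors, against 7.64 ± 0.31 in wild-type cells (SD, n = 3). The rise of 1.09 ± 0.21 (SE), or 2.12-fold, had a limma adjusted p of 0.046. The call did not hold when any of the 6 arrays was left out (0.059 to 0.12), nor under either filter on dim genes, the 3 other scalings or a trended robust prior, although the difference stayed positive in all of these.

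Cdk6, the other partner of D cyclins, measured 6.14, 6.82 and 6.01 in tumors, against 5.11, 3.72 and 5.20 in wild-type cells. The groups did not overlap, with tumor 24 highest, as for Ccnd2, and wild-type replicate 2 under the background mark. The difference was 1.65 ± 0.45 (SE, limma adjusted p of 0.092), and it was 1.17 without wild-type replicate 2. Under the filter at a mean of 5 Cdk6 passed (0.043), but with 4.68 in wild-type cells it reached that mean through its tumor values. Cdk2, the partner of E and A cyclins, measured 6.12, 6.33 and 6.32 in tumors and 6.49, 5.73 and 5.70 in wild-type cells. All 3 tumors lay within the wild-type range, and the difference of 0.29 ± 0.26 (SE, limma adjusted p of 0.48) turned negative under the 3 other scalings. Cdk3 differed by -0.35 ± 0.42 (SE, limma adjusted p of 0.59), with wild-type replicate 2 under the mark.

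Cdk10, a kinase that pairs with cyclin M in place of the classical cyclins, rose most clearly of the 47 genes. It measured 7.85, 8.47 and 7.54 in tumors, against 5.64, 5.69 and 5.73 in wild-type cells. The wild-type arrays were almost identical to each other and every tumor lay well above them. The rise of 2.27 ± 0.26 (SE), or 4.81-fold, had a limma adjusted p of 0.016, and it passed under both filters on dim genes and all 3 other scalings. It also passed without tumor 24 and without tumor 25, but not without tumor 23 (limma adjusted p of 0.052) or without wild-type replicate 1, 2 or 4 (0.057 to 0.071), while its size stayed between 2.01 and 2.47.

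The other kinases of the rule have roles in transcription, signalling or neurons more than in cell division. Of these 14, Cdk10 included, 10 had higher and 4 lower means in tumors as deposited, and 6 and 8 with housekeeping centring. Cdk5, a kinase best known from neurons, measured 7.47, 7.72 and 7.75 in tumors, against 6.32, 4.57 and 5.77 in wild-type cells. The tumors lay close together above the wild-type arrays, of which replicate 2 was lowest, and the difference of 2.09 ± 0.43 (SE) missed the threshold with a limma adjusted p of 0.054. Cdk16, a kinase of the PCTAIRE group, measured 7.65, 8.40 and 8.45 in tumors, against 6.56, 7.13 and 6.96 in wild-type cells. Its groups did not overlap and the difference was 1.28 ± 0.28 (SE, limma adjusted p of 0.061). Without the dim genes, among 7726 genes with a mean of at least 5, both Cdk5 and Cdk16 passed, and they also did under the filter at the median. Cdk5 passed besides with housekeeping centring, a trended robust prior and array weights.

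Cdk8, a kinase of the Mediator complex, was 1.53 ± 0.66 (SE) higher in tumors with separate groups, and its close relative Cdk19 was 0.67 ± 0.29 lower with overlapping groups. They measured 7.08, 8.19 and 7.49 in tumors and 6.97, 4.55 and 6.65 in wild-type cells for Cdk8, and 7.97, 7.94 and 8.56 in tumors and 8.34, 9.12 and 9.02 in wild-type cells for Cdk19. Neither passed as deposited, each with a limma adjusted p of 0.20, and the difference between the pair was not tested. Cdk7, which activates other cyclin-dependent kinases, differed by 0.84 (adjusted p of 0.20), with tumor 23 at 7.16 and all 3 wild-type arrays between 5.46 and 5.52. Cdk14, a kinase that pairs with cyclin Y, differed by 0.90 (0.094), with every wild-type array below the background mark. The transcription kinases Cdk9 (0.39), Cdk12 (0.45) and Cdk13 (0.36), and Cdk20 (0.51), were higher by less and turned negative with housekeeping centring. Cdk15 (-0.47), Cdk17 (-0.12) and Cdk18 (-0.64) were lower, and none of these passed as deposited. With housekeeping centring Cdk15, Cdk18 and Cdk19 passed, downward.

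Of the cyclins with other roles, 3 had higher and 3 lower means in tumors, and none passed as deposited. With a second quantile normalization or cyclic loess 1 was higher and 5 were lower, and with housekeeping centring all 6 were lower, of which Ccnl1 passed. The cyclin G genes Ccng1, a known target of p53, and Ccng2 differed by -0.13 ± 0.42 and -0.45 ± 0.35 (SE). Ccng1 measured 9.67, 8.64 and 8.30 in tumors and 8.50, 9.48 and 9.01 in wild-type cells, so that the groups overlapped throughout. The splicing cyclins Ccnl1 and Ccnl2 differed by -0.72 ± 0.35 and 0.60 ± 0.60, and the dimmer probe set of Ccnl2 by -0.12. Ccnl2 turned negative with housekeeping centring. The transcription cyclins Ccnt1 (0.22) and Ccnt2 (0.19), partners of Cdk9, turned negative under all 3 other scalings.

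Among the inhibitors, Cdkn2a had the largest difference. The locus encodes both an inhibitor of Cdk4 and Cdk6 and, from another reading frame, Arf, which stabilises p53, and the files do not say which transcript the probes read. It measured 6.10, 7.86 and 7.70 in tumors, against 4.88, 5.52 and 5.98 in wild-type cells. The groups did not overlap, although tumor 23 lay barely above wild-type replicate 4. The difference was 1.76 ± 0.52 (SE), or 3.38-fold, with limma's adjusted p of 0.11, and without tumor 23 it was 2.32 (0.059). Under the filter at a mean of 5 Cdkn2a passed (0.048), and under that at the median it did not (0.061). Its neighbour Cdkn2b, also an inhibitor of Cdk4 and Cdk6, measured 5.64, 6.65 and 6.21 in tumors and 5.03, 5.49 and 6.30 in wild-type cells. These groups overlapped, and the difference was 0.56 ± 0.40 (SE, limma adjusted p of 0.38).

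The other Cdkn2 members differed by less than the SD of their tumor values (0.86 for Cdkn2c and 0.54 for Cdkn2d). Cdkn2c measured 4.27, 3.28 and 4.98 in tumors and 3.47, 3.07 and 4.10 in wild-type cells, with tumor 24 and wild-type replicates 1 and 2 under the background mark (0.63 ± 0.47, SE, limma adjusted p of 0.41). Cdkn2d measured 5.60, 4.79 and 5.83 in tumors and 4.96, 5.11 and 5.07 in wild-type cells, with tumor 24 below all wild-type arrays (0.36 ± 0.29, SE, 0.43). Both genes were lowest in tumor 24 among the tumors, where Cdkn2a and Cdkn2b were highest.

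Cdkn1b, which encodes the inhibitor p27, measured 6.61, 5.74 and 6.23 in tumors and 4.83, 6.26 and 5.99 in wild-type cells. The difference of 0.50 ± 0.42 (SE, limma adjusted p of 0.45) came with wild-type replicate 1 as the lowest array, and the other arrays overlapped. Cdkn1c, an imprinted gene encoding p57, measured 3.86, 3.57 and 4.09 in tumors and 4.27, 4.22 and 3.96 in wild-type cells, little above the mark (-0.31 ± 0.20, SE, 0.35). Of the 6 inhibitors, 5 had higher means in tumors as deposited and 2 with housekeeping centring, and none passed as deposited.

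The 8 E2F factors all had higher means in tumors as deposited, but 6 did with a second quantile normalization or cyclic loess and 4 with housekeeping centring, and none passed. E2f1, an activator of replication genes, measured 4.85, 5.14 and 6.0 in tumors, against 4.67, 4.31 and 4.66 in wild-type cells. Tumor 25 stood highest and the groups did not overlap (0.78 ± 0.32, SE, limma adjusted p of 0.18). The activator E2f3 measured 5.23, 5.29 and 5.51 in tumors and 5.31, 4.98 and 5.03 in wild-type cells, with overlap. E2f2, another activator, measured 3.37, 2.64 and 2.83 in tumors and 3.09, 2.56 and 2.91 in wild-type cells, below the background mark on 2 tumor arrays and on all 3 wild-type arrays. The differences of E2f3 and E2f2 were 0.24 ± 0.18 and 0.09 ± 0.26 (SE), and limma's adjusted p 0.41 and 0.82.

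The atypical repressors E2f7 and E2f8 are themselves expressed in dividing cells. E2f7 measured 4.89, 4.35 and 5.23 in tumors, against 4.14, 4.18 and 3.89 in wild-type cells, without overlap (0.76 ± 0.26, SE, limma adjusted p of 0.14). E2f8 measured 5.37, 4.85 and 6.65 in tumors and 5.03, 3.92 and 4.89 in wild-type cells, with overlap (1.01 ± 0.52, SE, 0.26). In both genes tumor 25 was highest and tumor 24 lowest among the tumors, as for Ccna2, Ccnb2 and Cdk1.

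The repressor E2f6 measured 4.43, 3.39 and 4.79 in tumors, against 3.33, 3.35 and 2.95 in wild-type cells. All 3 wild-type arrays and tumor 24 lay under the background mark, so the size of its difference (0.99 ± 0.37, SE, limma adjusted p of 0.16) is that of RMA values only. Without tumor 24 it was 1.40 and passed, at a limma adjusted p of 0.036. The repressors E2f4 and E2f5, which act with the retinoblastoma relatives in resting cells, differed by 0.59 ± 0.27 and 0.18 ± 0.16 (SE). E2f4 measured 7.71, 8.27 and 8.14 in tumors and 7.92, 7.21 and 7.22 in wild-type cells. E2f5 was nearly level, at 6.61, 6.61 and 6.80 in tumors and 6.39, 6.52 and 6.57 in wild-type cells.

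**Figure D3:**
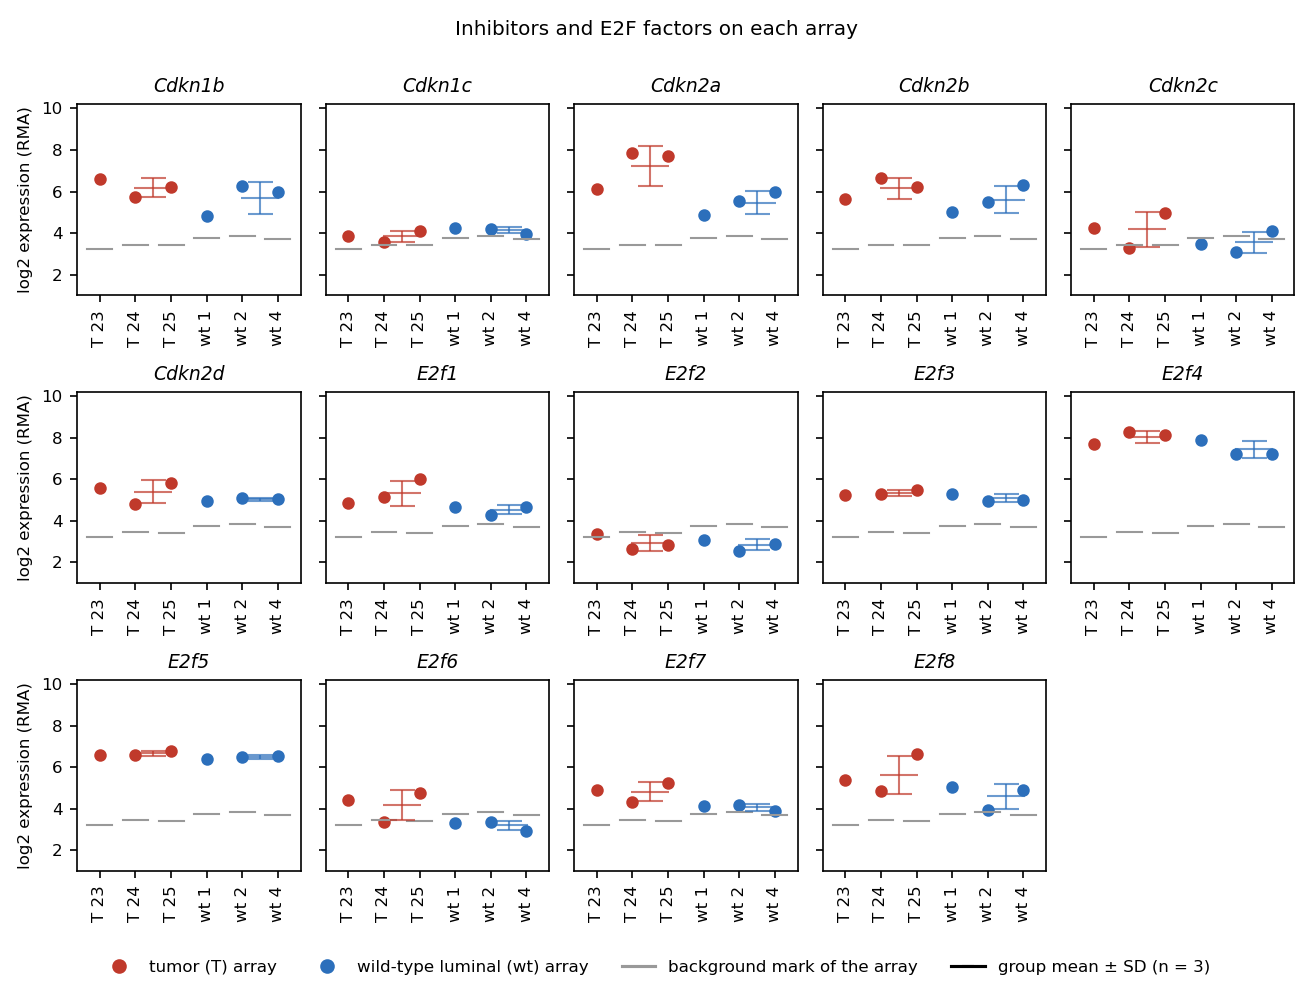
Log2 expression (vertical axis) of the 6 inhibitors and 8 E2F factors on each array, tumors 23, 24 and 25 in red and wild-type replicates 1, 2 and 4 in blue, with group means ± SD (n = 3) and the background mark of each array in grey. Cdkn2a stands out with 6.10 to 7.86 in tumors and 4.88 to 5.98 in wild-type cells, whereas E2f2 lies at the mark.

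A list of 28 measured partners and regulators (of 30 listed) was set beside the 47 genes. It holds the retinoblastoma family, the E2F partners, the Cdc25 phosphatases that activate the kinases, the inhibitory kinase Wee1, ubiquitin ligase parts, the MuvB complex and a few cyclins without a number. Of the 28, 2 rose (7.14%, against 2.52% of all genes and 4.72% of genes averaging at least 5), none fell and 26 did not pass. The tumor mean was higher for 22, and for 18, 20 and 15 with a second quantile normalization, cyclic loess and housekeeping centring. As deposited it was higher for 41.7% of all genes and 65.1% of genes averaging at least 5. The median difference was 0.76, against -0.12 over all genes and 0.32 over genes averaging at least 5. All tumor values lay above all wild-type values for 14 of the 28, where this held for 14.0% of all genes and 24.5% of genes averaging at least 5. They lay below for 2 (7.14%), where this held for 22.4% of all genes and for 745 of the 7726 genes averaging at least 5.

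Rbl1, the retinoblastoma relative that binds repressor E2F factors and is itself expressed in dividing cells, rose. It measured 7.17, 6.87 and 7.85 in tumors, against 5.41, 3.77 and 5.13 in wild-type cells, of which replicate 2 lay under the background mark. The rise of 2.53 ± 0.48 (SE) had a limma adjusted p of 0.044, but it passed in only 1 of the 6 leave-one-out sets, that without tumor 24 (0.048), and not with a second quantile normalization (0.053). Mybl2, which joins the MuvB complex to switch on mitotic genes, measured 5.91, 5.99 and 6.17 in tumors, against 4.82, 4.55 and 4.72 in wild-type cells. Both groups were tight and apart, and the rise of 1.32 ± 0.17 (SE) had a limma adjusted p of 0.019. Its dimmer probe set differed by 0.01, and the mean of both did not pass (0.67, limma adjusted p of 0.11). Of the leave-one-out sets it passed only in that without tumor 24 (0.029), and otherwise reached 0.051 to 0.081. With housekeeping centring it did not pass (0.71, limma adjusted p of 0.10).

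Rb1 itself, the retinoblastoma gene, measured 7.79, 8.17 and 8.08 in tumors and 8.07, 7.86 and 7.37 in wild-type cells. The groups overlapped, and the difference was 0.25 ± 0.24 (SE, limma adjusted p of 0.50). Its other relative Rbl2 measured 6.93, 6.73 and 6.51 in tumors, against 5.11, 6.02 and 5.11 in wild-type cells. All tumors lay above all wild-type arrays, and the difference was 1.31 ± 0.30 (SE, limma adjusted p of 0.065). It passed under both filters on dim genes (0.048 and 0.049), with array weights (0.033) and without wild-type replicate 2 (0.048). The mitotic transcription factor Foxm1 measured 5.53, 4.85 and 5.80 in tumors, against 4.48, 4.73 and 4.44 in wild-type cells, without overlap (0.84 ± 0.27, SE, limma adjusted p of 0.13), and passed without tumor 24 (0.044). Wee1, which holds Cdk1 inactive, was lower in every tumor, at 5.32, 4.87 and 6.24, against 6.89, 7.12 and 7.94 in wild-type cells. It was named after its values were seen, and its difference of -1.84 ± 0.43 (SE) did not pass as deposited (0.068), but it passed, downward, with either dim-gene filter and under all 3 other scalings.

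**Figure D4:**
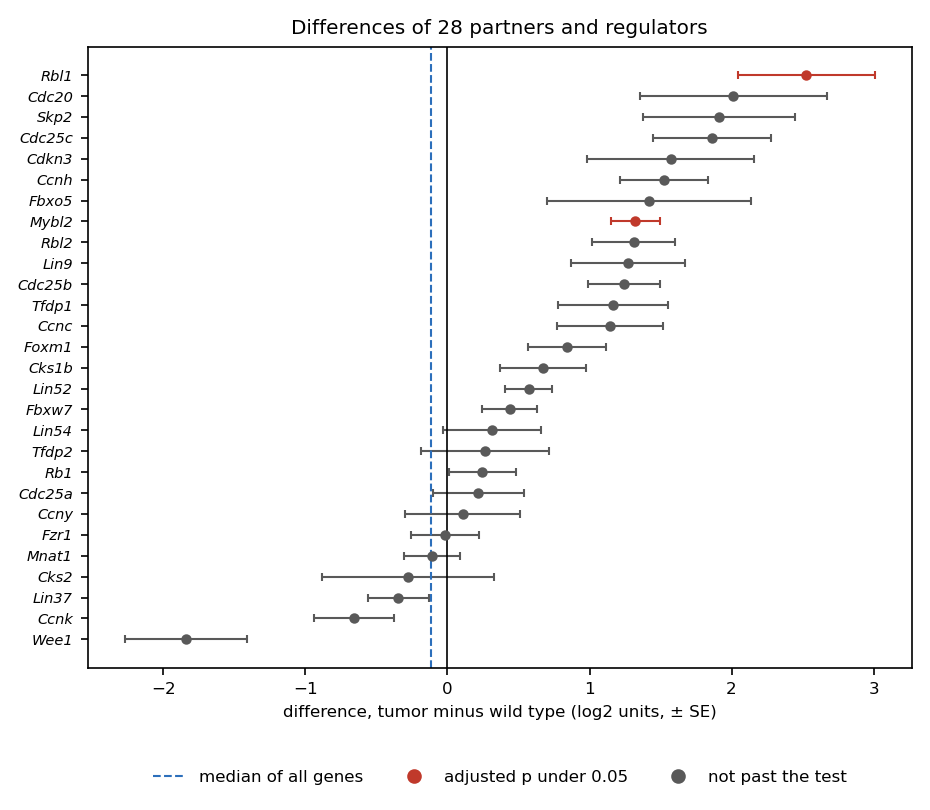
Difference of each of the 28 partners and regulators, tumor minus wild type, in log2 units on the horizontal axis with the moderated standard error as bars, ordered by size. Rbl1 and Mybl2 passed limma's test (red), Wee1 lies lowest at -1.84, and the dashed line is the median of all genes (-0.12); 22 points lie to the right of 0 as deposited and 15 with housekeeping centring.

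The promoters of Cdk4 and Cdk10, which passed, and of Cdk1 and Ccnb2, the mitotic pair with large differences that was added after its values were seen, show how the start regions of these genes differ. The RefSeq table (GRCm38.p6) held 43 promoters for 37 of the 47 genes, each running from 250 bases before to 50 bases after the gene's start. They were searched on both strands for 3 words bound by E2F factors (TTTCCCGC, TTTCGCGC and TTTGGCGC), for the cell cycle homology word TTTGAA and for CCAAT. Matches of different words did not overlap. Capitals mark the matches, a word on the other strand being shown as its reverse complement.
Cdk4 promoter, chr10:127063285-127063584, plus strand: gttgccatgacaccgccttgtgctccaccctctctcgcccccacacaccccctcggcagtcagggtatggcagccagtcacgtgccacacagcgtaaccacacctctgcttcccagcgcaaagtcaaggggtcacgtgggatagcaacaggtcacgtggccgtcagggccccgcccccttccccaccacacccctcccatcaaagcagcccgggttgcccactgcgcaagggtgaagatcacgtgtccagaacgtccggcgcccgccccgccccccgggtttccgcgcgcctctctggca
Cdk10 promoter, chr8:123224591-123224890, plus strand: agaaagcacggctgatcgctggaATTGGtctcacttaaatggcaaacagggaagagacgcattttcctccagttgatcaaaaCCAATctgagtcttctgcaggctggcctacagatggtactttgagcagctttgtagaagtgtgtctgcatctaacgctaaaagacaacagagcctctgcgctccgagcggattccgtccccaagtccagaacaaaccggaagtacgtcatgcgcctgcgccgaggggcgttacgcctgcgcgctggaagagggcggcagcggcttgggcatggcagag
Cdk1 promoter, chr10:69352863-69353162, minus strand: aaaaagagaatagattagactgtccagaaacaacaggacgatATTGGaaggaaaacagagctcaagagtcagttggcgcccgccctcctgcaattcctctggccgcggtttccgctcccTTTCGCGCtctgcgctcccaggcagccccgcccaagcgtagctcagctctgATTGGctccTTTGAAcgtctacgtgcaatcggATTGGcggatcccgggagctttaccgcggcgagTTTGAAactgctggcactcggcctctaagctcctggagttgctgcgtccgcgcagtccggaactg
Ccnb2 promoter, chr9:70421505-70421804, minus strand: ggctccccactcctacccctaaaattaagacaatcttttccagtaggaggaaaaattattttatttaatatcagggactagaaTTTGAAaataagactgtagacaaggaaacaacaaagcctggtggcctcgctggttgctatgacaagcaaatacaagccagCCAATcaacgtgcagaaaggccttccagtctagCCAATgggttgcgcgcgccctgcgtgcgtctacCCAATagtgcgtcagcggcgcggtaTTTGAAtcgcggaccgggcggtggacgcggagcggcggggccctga

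The Cdk4 stretch held none of these letters and that of Cdk10 held CCAAT alone, in 2 places. The Cdk1 stretch held 1 E2F word, 2 TTTGAA words and 3 CCAAT words, and that of Ccnb2 held 2 TTTGAA and 3 CCAAT words. Any of the 3 E2F words was found in 6 of the 43 promoters (14%), those of Cdk1, Cdk2, Cdkn2a, E2f2, E2f3 and E2f7, and in 1.84% of all 32851 promoters. TTTGAA was found in 7 of the 43 (16.3%) and in 17.9% of all, and CCAAT in 21 (48.8%) and in 37.4% of all. Of the genes with an E2F word, Cdk1, Cdkn2a and E2f7 had differences of 2.67, 1.76 and 0.76, and Cdk2, E2f2 and E2f3 of 0.09 to 0.29. A match is a description of letters, and binding was not measured.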

How the data were processed

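The authors deposited 1 log2 value for each probe set on each array, made with RMA and oligo per the submitters' processing notes, which name no versions. RMA compresses differences near background. Precision is limited by the number of arrays. No scan dates or batches were given, so none was tested. Of 41345 probe sets, 23521 named 1 gene in the platform annotation, 1814 several and 16010 none. No column was left unmapped to a sample. All 22180 genes were fitted with limma 3.58.1 (R 4.3.3; lmFit, eBayes, two-sided, no covariates, no filter), a step tested on simulated data. All 47 symbols matched RefSeq. The members and lists were chosen with earlier results of these data known, and the background mark was chosen after the data were seen. Named with array values are members past the threshold, the A, B, D and E cyclins, Cdk1, Cdk2, Cdk4, Cdk6, inhibitors and E2F factors; Rb1, Rbl1, Rbl2, Foxm1, Mybl2 and called partners; Cdk5, Cdk8, Cdk16, Cdk19, Ccng1, Wee1 and the marker Krt19 were added after their values were seen. In the marker lists not named in the results, 1 of 6 basal genes fell, 1 of 7 fibroblast genes rose, and none of the measured T cell, B cell, endothelial or adipocyte genes passed. Alternatives were 2 filters on dim genes, the mean of probe sets, single probe sets, a second quantile normalization, cyclic loess, centring on 14 housekeeping genes, a trended robust prior, array weights, current symbols and leaving out each array.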

Additional observations from a re-analysis of the deposited data

How the results depend on the processing

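With 3 arrays a group, few calls were stable. As deposited 2 of the 47 genes rose and none fell; 8 rose with a mean of at least 5 (among 34 tested, where 8.40% of genes rose), 5 under the filter at the median over genes, 1 with a second quantile normalization, 1 with cyclic loess, and 5 rose and 5 fell with housekeeping centring, which called 4975 genes in all. Leaving out each array gave 0 to 4 that rose, 4 without tumor 24 (Ccnb2, Ccnd3, Cdk10 and E2f6), 1 without tumor 25 and 0 without each of the others. All genes called, in either direction, numbered 867 as deposited, 883 with a second quantile normalization, 845 with cyclic loess and 1324 with array weights. They numbered 915 of 7726 under the filter at 5 and 1119 of 11090 under that at the median, where 38 of the 47 were tested. Over the leave-one-out sets they ranged from 72 (without wild-type replicate 4) to 1200 (without tumor 24). The median difference of the 47 was 0.56 as deposited, 0.38 with a second quantile normalization, 0.36 with cyclic loess and -0.047 with housekeeping centring, and 0.38 to 0.67 over the leave-one-out sets. Of the 28 partners and regulators, 2 rose as deposited; 5 rose and 1 fell under the filter at 5, 6 and 1 under the filter at the median, 1 and 1 with a second quantile normalization; 1 fell with cyclic loess and 2 with housekeeping centring; 1 rose with the mean of probe sets, 4 with a trended robust prior, 6 with array weights, and 0 to 8 in the leave-one-out sets. Differences turned negative for Cdk2 (-0.084), E2f3 (-0.12) and E2f5 (-0.14) with a second quantile normalization; for Cdk2 (-0.014), E2f3 (-0.023) and E2f5 (-0.11) with cyclic loess; for Cdk2 (-0.32), Cdkn1b (-0.11), Cdkn2b (-0.047), Cdkn2d (-0.25), E2f2 (-0.51), E2f3 (-0.37), E2f4 (-0.020), E2f5 (-0.43) and Rb1 (-0.36) with housekeeping centring; and for E2f2 without tumor 23 (-0.12) or wild-type replicate 2 (-0.051), while over the leave-one-out sets E2f2 reached 0.25. Of 497 comparisons of named genes with their deposited result, 432 kept direction and side of the threshold. Most of these genes did not pass as deposited, so this was mostly a gene that again did not pass. In 29 comparisons a call was lost with the same direction, in 19 one was gained, and in 17 the direction turned. Filters changed the set of genes that was fitted and adjusted over, and leave-one-out sets had fewer arrays. Both filters take the mean over all 6 arrays. The filter at 5 kept the members Ccnd2, Cdk1, Cdk6 and E2f8 only through their tumor values. Of the partners that rose under it, the same holds for Mybl2, Rbl1 and Skp2, with 4.70, 4.77 and 4.25 in wild-type cells. Cdc25b, which rose under the filter at the median, averaged 3.58 in wild-type cells. These added calls are therefore no separate support for a rise. Why calls moved between settings was not tested. No paired analysis was possible because the groups share no replicate numbers.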

Other observations

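Genes with like symbols that the rule did not take in, such as cyclins without a number, kinase-like genes and proteins that bind the kinases, numbered 23. Of these, 16 had higher means in tumors, as did 41.7% of all genes and 65.1% of genes averaging at least 5. The median difference was 0.39, against -0.12 over all genes and 0.32 over those averaging at least 5. In limma's test 0 of the 23 passed, where 3.91% of all genes did, and 7 had an unadjusted p under 0.05, where 26.4% did. The groups did not overlap for 7, all higher in tumors, where this held for 14.0% of all genes and 24.5% of those averaging at least 5. The neuronal activators of Cdk5, Cdk5r1 and Cdk5r2, lay at or near the background mark, with 3.28, 3.36 and 3.18 in tumors 23, 24 and 25 and 3.55, 3.21 and 3.64 in wild-type replicates 1, 2 and 4 for Cdk5r1. Cdk5r2 measured 3.50, 3.26 and 3.43 in tumors and 3.31, 4.13 and 3.22 in wild-type cells. Both had overlapping groups, whereas Cdk5 itself was 2.09 higher in tumors. The genes Cdk5rap1 and Cdk5rap2, of which Cdk5rap2 encodes a centrosome protein, differed by 2.01 ± 0.58 and 1.47 ± 0.39 (SE) and had limma adjusted p of 0.10 and 0.091. Cdk5rap3 differed by 1.12 ± 0.43 (SE), with overlapping groups and an adjusted p of 0.17.

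A probe set that names cyclin E2 together with its neighbour Ints8, and so cannot be read as either gene, measured 5.56, 4.24 and 5.79 in tumors 23, 24 and 25, against 4.16, 3.40 and 4.07 in wild-type replicates 1, 2 and 4. Its values did not overlap between groups, with tumor 24 lowest among the tumors.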
